A study of Mus musculus with 6 samples.

Results

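The transcripts of 10 genes of pulmonary surfactant and of the alveolar type 2 (AT2) cell that makes it were compared between lungs of WT and ISM1 knockout (ISM1-KO) mice. No member of the group passed the test for a difference between genotypes, and its largest change in mean level, in *Sftpb*, left 86.8% of the WT level. The genes were *Sftpa1*, *Sftpb*, *Sftpc*, *Sftpd*, *Abca3*, *Lamp3*, *Lpcat1*, *Napsa*, *Slc34a2* and *Etv5*, and they were found by exact match of the gene symbol among the 54532 genes of the deposited count table. All 10 were present and passed the filter on low counts, which left 18689 genes for testing. The study addressed the part of isthmin-1 (ISM1), a secreted protein of the airway and lung, in allergic airway inflammation, and its RNA was measured at baseline. Lungs of untreated mice aged 2 months were perfused to remove blood, and RNA of the whole lung was sequenced in 3 WT and 3 ISM1-KO libraries. The WT mice were purchased C57BL/6J animals, whereas the ISM1-KO line was bred in-house on a C57BL/6J background. Genotype and source of the mice therefore cannot be told apart in these libraries. The labels number the replicates from 1 to 3 in each genotype, and p-values measure only the spread between these libraries.

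Surfactant is a film of phospholipid and protein that lowers the surface tension of the alveoli and keeps them from collapsing at the end of a breath. AT2 cells make its phospholipid, process the hydrophobic proteins SP-B and SP-C from larger precursors, pack both into lamellar bodies and release them into the alveolar fluid. The collectins SP-A and SP-D are secreted too and bind microbes, and the same cells serve as progenitors of the flat alveolar type 1 (AT1) cells that exchange gas.

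Transcription of surfactant genes in AT2 cells depends on NKX2-1 (TTF-1), whose binding sites typically contain the letters CTCAAG or CAAGTG. The 250 bases before the annotated start are given for the surfactant protein genes that have an entry among the RefSeq promoter sequences (GRCm38.p6), because they carry these letters. The sequence of *Sftpb*, which had the lowest fold change of the 10 genes, lies at chr6:72304360-72304609 on the forward strand, and that of *Sftpa1* lies at chr14:41131538-41131787 on the forward strand. Capitals mark CTCAAG or CAAGTG on either strand.
Sftpb: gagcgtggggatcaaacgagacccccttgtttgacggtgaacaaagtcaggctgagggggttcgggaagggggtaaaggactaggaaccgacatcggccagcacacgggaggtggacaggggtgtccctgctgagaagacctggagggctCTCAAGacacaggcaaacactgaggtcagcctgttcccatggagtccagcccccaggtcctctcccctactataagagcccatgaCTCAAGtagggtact
Sftpa1: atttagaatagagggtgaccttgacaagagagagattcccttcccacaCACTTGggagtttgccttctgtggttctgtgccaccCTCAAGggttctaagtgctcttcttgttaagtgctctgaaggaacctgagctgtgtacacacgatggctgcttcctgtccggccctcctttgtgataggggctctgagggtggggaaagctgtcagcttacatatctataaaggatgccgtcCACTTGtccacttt
In the *Sftpb* sequence, CTCAAG began 100 and 15 bases before the start. In the *Sftpa1* sequence, CTCAAG began 166 bases before the start, and CACTTG, the reverse complement of CAAGTG, began 202 and 14 bases before it. The search covered both strands, CTCAAG was present in 13.3% and CAAGTG in 11.6% of 32851 promoter sequences of the same length, and the letters are a description and not evidence of binding. Of the 10 genes, 7 had an entry, and *Abca3*, *Lamp3*, *Lpcat1*, *Slc34a2* and *Etv5* had neither motif in their windows. For *Slc34a2* the window, chr5:53049103-53049352, lies inside the gene as annotated in the count table (53038081 to 53071664, forward strand). The bases before that gene's first position were therefore not searched. *Etv5* had more than 1 entry, and its window at chr16:22438369-22438618 also lies inside the gene (22381309 to 22439719, reverse strand). The other *Etv5* window and those of *Sftpa1*, *Abca3*, *Lamp3* and *Lpcat1* reach partly into the annotated gene. *Sftpc*, *Sftpd* and *Napsa* had no entry.

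Total counts were 37606133 to 42345042 per library. *Ism1* itself was at 78.9 ± 2.88 CPM (counts scaled to a common library size) in WT and 69.1 ± 5.72 CPM in the libraries labelled ISM1-KO (SD, n = 3), so transcript was still present and the labels alone give the genotype. Its log2 fold change, ISM1-KO over WT, was -0.19 (SE 0.0709, adjusted p = 0.217 by the quasi-likelihood test of edgeR, Benjamini-Hochberg). Without ISM1-KO replicate 3 it was -0.26 and passed the threshold (adjusted p = 0.0356 by the same edgeR test), and with any other library left out it did not pass. Summed levels of several other cell types differed between the genotypes without overlap. The 5 club cell markers summed to 23690 to 25550 CPM in WT and 15370 to 19400 CPM in ISM1-KO, and the 5 adipocyte markers to 47.6 to 61.5 CPM and 15.2 to 30.2 CPM. The 5 neutrophil markers lay between 42.1 and 55.7 CPM in WT and between 71.1 and 125.7 CPM in ISM1-KO, and the 5 markers of B and plasma cells between 68.2 and 75.9 CPM and between 96.0 and 149.2 CPM. Those of the 6 ciliated markers were 566.0 to 650.7 CPM in WT and 495.2 to 543.6 CPM in ISM1-KO. The 8 capillary endothelial markers summed to 4100 to 4323 CPM in WT and, higher, 4367 to 4631 CPM in ISM1-KO. The sums of the 12 AT1 markers overlapped, at 7550 to 9799 CPM in WT and 9721 to 10340 CPM in ISM1-KO. No sum was tested. Because the tissue was bulk lung, fewer AT2 cells and less RNA per AT2 cell cannot be told apart in any value given here.

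The lungs of both genotypes were rich in AT2 transcripts. Together the 10 genes held 2.5%, 2.51% and 2.55% of all counts in WT against 2.5%, 2.43% and 2.35% in ISM1-KO. On the CPM scale they summed to 24960 to 25440 in WT and 23850 to 24880 in ISM1-KO, without overlap. This sum was not tested either. The 4 surfactant protein genes alone held 2.01% to 2.06% in WT and 1.87% to 2.01% in ISM1-KO. *Sftpc* ranked 2 among all genes by counts in each of the 6 libraries, and the lowest count of any of the 10 genes in any library was 8028 (*Etv5*).

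Levels were compared between genes per length, with the deposited FPKM averaged over the 6 libraries. *Sftpc* led at 16690 FPKM. *Sftpb* followed at 2727, *Sftpa1* at 1737, *Slc34a2* at 1094 and *Sftpd* at 468.2 FPKM. The others descended from *Napsa* at 342.7 FPKM through *Lpcat1* at 306.8, *Lamp3* at 184.9 and *Abca3* at 180.3 to *Etv5* at 125.2 FPKM. In this order only *Lamp3*, at 172.3 to 199.2 FPKM, and *Abca3*, at 161.9 to 194.9 FPKM, overlapped with their neighbour over the libraries.

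The lower part of the order depended on the gene length used. The FPKM values imply lengths at or below those in the deposited gene table, for example 922 against 2660 bases for *Napsa* and 1735 against 4632 bases for *Lpcat1*. With the lengths of the table, *Lamp3* at 184.9 FPKM stood above *Napsa* at 118.8 and *Lpcat1* at 114.9 FPKM, whose libraries then overlapped. The first 5 places were the same with either length. Differences between genotypes are not affected, since each gene has 1 length for all libraries.

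**Figure D1:**
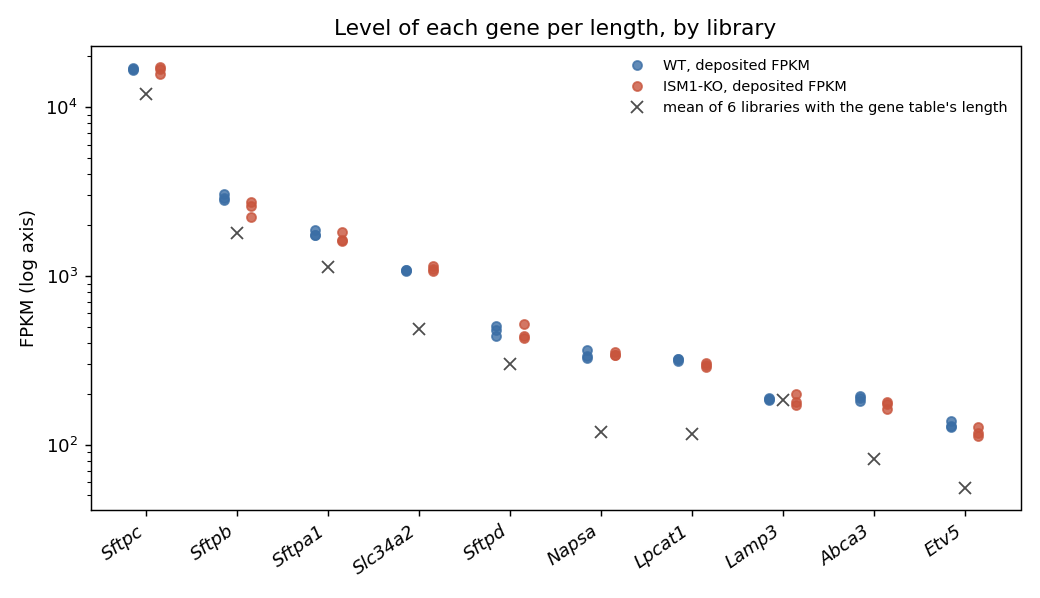
Level of the 10 genes per length in each library, as deposited FPKM on a log axis, with WT in blue, ISM1-KO in red and crosses for the mean of the 6 libraries with the gene table's length. *Sftpc* stood highest at a mean of 16690 FPKM and *Etv5* lowest at 125.2 FPKM, and for each gene the points of both genotypes lay close together.

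None of the 10 genes passed an adjusted p of 0.1 by the quasi-likelihood test of edgeR (Benjamini-Hochberg), and 4.72% of all tested genes did. With a change of at least 2-fold as well, the count was again 0, against 0.567% of all tested genes. At an unadjusted p under 0.05 the count was 1 of 10 (*Sftpb*), against 15.8% of all tested genes. DESeq2 also called 0 of the 10, with *Sftpb* again the 1 gene under an unadjusted p of 0.05. The log2 fold changes lay between -0.20 and 0.04 with standard errors of 0.053 to 0.087, and the median was -0.05 beside 0.0043 over all tested genes. The median of the 10 genes moved to -0.02 without WT replicate 3, to -0.08 without WT replicate 1, to -0.03 without ISM1-KO replicate 2 and to -0.09 without ISM1-KO replicate 3. The mean was lower in ISM1-KO for 8 genes and higher for 2. The 95% intervals of the 10 genes reached from 0.771-fold to 1.13-fold, so larger changes lay outside each of them, and 1 interval excluded 0 (*Sftpb*). In 4 genes (*Sftpb*, *Abca3*, *Lpcat1* and *Etv5*) every ISM1-KO library lay below every WT library, whereas 12.3% of all tested genes did so. In the other 6 the genotypes overlapped, while 21.6% of all tested genes showed no overlap in either direction, and no gene of the 10 had every ISM1-KO library above WT, which 9.33% of all tested genes had.

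**Figure D2:**
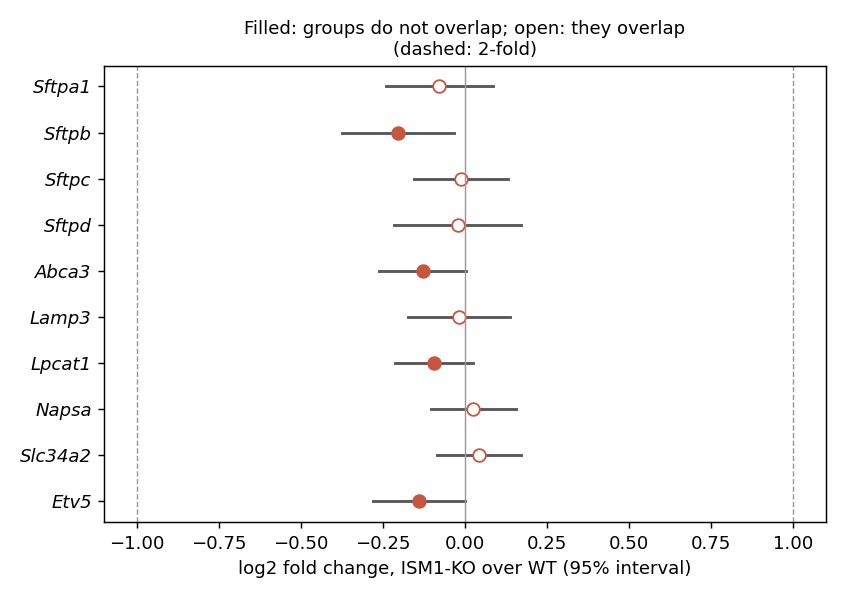
Log2 fold change, ISM1-KO over WT, of each gene with its 95% interval from edgeR, and dashed lines at a 2-fold change. Filled points are the 4 genes whose genotypes did not overlap, all intervals lay between -0.38 and 0.17, far inside the dashed lines, and that of *Sftpb* alone excluded 0.

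Among the hydrophobic surfactant proteins, *Sftpb* (chromosome 6, 72304610 to 72314371, forward strand, on GRCm38 as for the genes that follow) encodes SP-B, without which newborns cannot breathe. It was at 3948, 3664 and 3716 CPM in WT and 3523, 3360 and 2952 CPM in ISM1-KO. All 3 ISM1-KO libraries were below the lowest WT library, and replicate 3 was farthest down. The mean was 3776 ± 151 CPM in WT and 3278 ± 294 CPM in ISM1-KO (SD, n = 3), which is 86.8% of the WT level. The log2 fold change was -0.20 (SE 0.0768, 95% interval -0.38 to -0.03, adjusted p = 0.223 by the quasi-likelihood test of edgeR, Benjamini-Hochberg). Without ISM1-KO replicate 3 it was -0.13. When no filter was put on low counts, the adjusted p by the same test was 0.0582 and passed the threshold. *Sftpb* is made in club cells as well as in AT2 cells, and the summed club markers were lower in ISM1-KO, as given above. The genotypes overlapped for the surfactant protein genes *Sftpa1* (log2 fold change -0.08) and *Sftpd* (-0.02), given below. The part of club cells in the values of *Sftpb*, *Sftpa1* or *Sftpd* was not tested.

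*Sftpc* (chromosome 14, 70520949 to 70524081, reverse strand) encodes SP-C and is the transcript most closely tied to AT2 cells. Its level was 12260, 12520 and 12590 CPM in WT and 12790, 12500 and 11810 CPM in ISM1-KO. Replicate 1 of ISM1-KO was the highest of the 6 libraries and replicate 3 the lowest, so the genotypes overlapped fully. Its log2 fold change of -0.01 had a 95% interval of -0.15 to 0.13 and an adjusted p of 0.962 by the quasi-likelihood test of edgeR (Benjamini-Hochberg).

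The ratio of *Sftpb* to *Sftpc* was examined after these values had been seen. It was 0.322, 0.293 and 0.295 in WT and 0.276, 0.269 and 0.25 in ISM1-KO on the CPM scale, without overlap. Of the summed FPKM of the 4 surfactant protein genes, *Sftpb* made up 13.3% ± 0.643 in WT and 11.9% ± 0.673 in ISM1-KO, and *Sftpc* 76.4% ± 0.477 and 78.0% ± 0.575 (SD, n = 3). These shares describe the libraries and were not tested.

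The genotypes overlapped for both collectins, as for *Sftpc*, and a difference between collectins and hydrophobic proteins was not tested. *Sftpa1* (chromosome 14, 41131782 to 41136452, forward strand), which encodes SP-A, was at 3214, 3243 and 3464 CPM in WT and 2991, 2982 and 3424 CPM in ISM1-KO. *Sftpd* (chromosome 14, 41172214 to 41185149, reverse strand), which encodes SP-D, was at 673.7, 737.6 and 773.9 CPM in WT and 676.7, 664.0 and 811.3 CPM in ISM1-KO. For both genes replicates 1 and 2 of ISM1-KO were near or below the lowest WT library, and replicate 3 was near or above the highest. The log2 fold change of *Sftpa1* was -0.08 (SE 0.0731, 95% interval -0.24 to 0.09), with an adjusted p of 0.676 by the quasi-likelihood test of edgeR (Benjamini-Hochberg). That of *Sftpd* was -0.02 (SE 0.087, 95% interval -0.22 to 0.17), with an adjusted p of 0.941 by the same edgeR test. The 2 genes are near neighbours on chromosome 14, with 35761 bases and 2 other genes between them.

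*Abca3*, *Lamp3* and *Lpcat1* serve the lamellar body and its lipid. *Abca3* (chromosome 17, 24351950 to 24410201, forward strand) encodes the transporter that moves phospholipid into the lamellar body. It was at 729.5, 783.9 and 761.7 CPM in WT and 717.3, 701.5 and 661.9 CPM in ISM1-KO, without overlap. Its log2 fold change was -0.13 (SE 0.0593, 95% interval -0.26 to 0.0035), with an adjusted p of 0.330 by the quasi-likelihood test of edgeR (Benjamini-Hochberg). *Lpcat1* (chromosome 13, 73467197 to 73516422, forward strand) encodes an acyltransferase that remodels lysophosphatidylcholine into the saturated phosphatidylcholine of surfactant. Its level was 555.3, 556.9 and 537.9 CPM in WT and 525.0, 515.7 and 505.6 CPM in ISM1-KO. These 6 values did not overlap either, and they had the smallest standard error of the 10 genes. The log2 fold change of *Lpcat1* was -0.09 (SE 0.053, 95% interval -0.21 to 0.02), with an adjusted p of 0.443 by the same edgeR test.

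*Lamp3* (chromosome 16, 19653378 to 19706375, reverse strand), also called DC-LAMP, encodes a membrane protein of the lamellar body that mature dendritic cells make too. It was at 616.5, 623.6 and 635.5 CPM in WT and 594.7, 577.8 and 679.2 CPM in ISM1-KO. The narrow WT range lay wholly within that of ISM1-KO, whose replicate 3 was the highest of the 6 libraries. It had a log2 fold change of -0.02 (SE 0.0694, 95% interval -0.17 to 0.14, adjusted p = 0.937 by the quasi-likelihood test of edgeR, Benjamini-Hochberg).

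*Napsa* and *Slc34a2* were the 2 genes with a higher mean in ISM1-KO. *Napsa* (chromosome 7, 44572380 to 44586862, forward strand) encodes napsin A, an aspartic protease that trims the SP-B precursor. It was at 299.7, 308.2 and 332.4 CPM in WT and 323.3, 314.3 and 319.7 CPM in ISM1-KO, all 3 ISM1-KO libraries lying within the WT range. *Slc34a2* (chromosome 5, 53038081 to 53071664, forward strand) encodes the sodium-phosphate cotransporter NaPi-IIb, which takes up phosphate freed from surfactant phospholipid. It was at 2411, 2383 and 2399 CPM in WT and 2536, 2387 and 2483 CPM in ISM1-KO, with replicate 2 of ISM1-KO inside the WT range and the other 2 above it. The log2 fold change was 0.03 for *Napsa* (95% interval -0.10 to 0.16, adjusted p = 0.885) and 0.04 for *Slc34a2* (95% interval -0.09 to 0.17, adjusted p = 0.793) by the quasi-likelihood test of edgeR (Benjamini-Hochberg).

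*Etv5* (chromosome 16, 22381309 to 22439719, reverse strand) encodes an ETS transcription factor that acts downstream of FGF receptor signalling and maintains AT2 identity. Its level was 249.5, 231.7 and 228.6 CPM in WT and 210.8, 227.8 and 205.8 CPM in ISM1-KO. The genotypes did not overlap, though replicate 2 of ISM1-KO was just under the lowest WT library. The difference on the log2 scale was -0.14 (SE 0.0626, 95% interval -0.28 to 0.0006), and the adjusted p was 0.319 by the quasi-likelihood test of edgeR (Benjamini-Hochberg).

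3 of the 10 genes are overlapped on the opposite strand by other annotated genes, and the strand setting of the counting is not given in the sources used here. *D330041H03Rik* overlaps *Abca3*, *Gm15396* overlaps *Napsa* and *Gm17182* overlaps *Slc34a2*, with 717.2, 186.7 and 92.8 counts on average per library. The snRNA gene *Gm25618* within *Abca3* had 0 counts. All of these were below the counts of the gene they overlap.

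The libraries differed in which genes were high or low. Across the 10 genes the coefficient of variation was 0.604% to 6.96% in WT and 1.42% to 11.4% in ISM1-KO. ISM1-KO replicate 3 was the lowest of the 6 libraries for *Sftpb*, *Sftpc*, *Abca3*, *Lpcat1* and *Etv5* and the highest for *Sftpd* and *Lamp3*. Relative to the WT mean its log2 level was -0.36 for *Sftpb*, -0.20 for *Abca3* and -0.20 for *Etv5*, and 0.16 for *Sftpd* and 0.12 for *Lamp3*. The ratio of *Sftpa1* to *Sftpb* was 0.814 to 0.932 in WT and 0.849 and 0.888 in ISM1-KO replicates 1 and 2, but 1.16 in replicate 3. That of *Lamp3* to *Abca3* was 0.796 to 0.845 in the other 5 libraries and 1.03 in this one. These genes and ratios were singled out after their values had been seen, and the ratios do not depend on how libraries are scaled. The TMM factor of ISM1-KO replicate 3 was 0.985, and the other libraries had factors of 1.001 to 1.005.

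**Figure D3:**
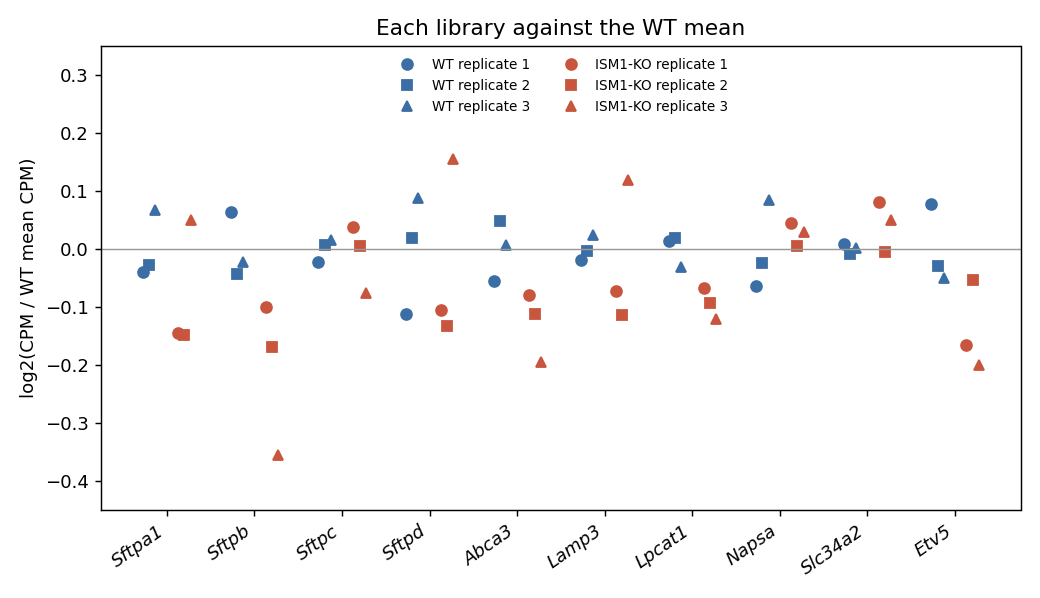
Level of each gene in each library as log2 of its CPM over the WT mean CPM, with WT in blue and ISM1-KO in red. A marker shape stands for each replicate number, which the labels do not describe as a pairing. Red triangles (ISM1-KO replicate 3) lay at -0.36 for *Sftpb* and -0.20 for *Abca3* and *Etv5*, and at 0.16 for *Sftpd* and 0.12 for *Lamp3*.

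Other genes of the surfactant pathway were read from the same test. Of 23 genes of surfactant lipid synthesis, 3 fell and 0 rose at an adjusted p of 0.1 (3.34% of all tested genes fell and 1.38% rose), and the median log2 fold change was -0.15. The 3 were *Acaca*, *Insig1* and *Fasn*. *Fasn*, fatty acid synthase, was counted 32875, 35902 and 28958 times in WT against 30118, 24665 and 23336 times in ISM1-KO, and fell by 0.35 on the log2 scale (SE 0.0821, adjusted p = 0.0625 by the quasi-likelihood test of edgeR, Benjamini-Hochberg). *Acaca*, acetyl-CoA carboxylase, which feeds malonyl-CoA to that enzyme, fell by 0.39 (SE 0.085, adjusted p = 0.0488), and *Insig1*, which holds back processing of the lipogenic SREBP factors, fell by 0.35 (SE 0.0812, adjusted p = 0.0597) by the same edgeR test. All 3 were without overlap between genotypes on the CPM scale. No gene of the list was called without WT replicate 2 or without ISM1-KO replicate 2, 1 was called without replicate 1 of either genotype, and DESeq2 called 5 lower. Adipocytes use these enzymes as well, all 5 adipocyte markers fell (median -1.72, with 2 of 5 called without WT replicate 2 or ISM1-KO replicate 1 or 2 and 3 without WT replicate 3), and their part in these 3 calls was not tested.

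Of 16 genes of surfactant protein processing, lamellar body trafficking and secretion, 0 passed the edgeR test, with a median log2 fold change of -0.06, while DESeq2 called 1 lower. The highest were *Adgrf5*, a receptor of AT2 and endothelial cells that restrains surfactant pool size, at 1970 CPM in WT and 2118 CPM in ISM1-KO, and *Atp8a1*, a phospholipid flippase, at 444.8 and 431.0 CPM. Of 10 genes of surfactant clearance, which is largely the work of alveolar macrophages under GM-CSF, 0 passed, with a median of -0.0086 that lay on either side of 0 with a library left out (-0.10 to 0.06). *Npc2*, a cholesterol-binding protein of lysosomes and lamellar bodies, was at 851.1 CPM in WT and 765.7 CPM in ISM1-KO (adjusted p = 0.288 by the quasi-likelihood test of edgeR, Benjamini-Hochberg). *Abca1*, a cholesterol exporter, was at 115.5 and 121.7 CPM. The 8 alveolar macrophage markers, of which 0 passed, summed to 623.8 to 688.9 CPM in WT and 562.7 to 659.6 CPM in ISM1-KO.

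Of 10 transcription factors of AT2 cells other than *Etv5*, 2 fell and 0 rose at an adjusted p of 0.1 (3.34% of all tested genes fell and 1.38% rose). The median log2 fold change was -0.22, and 9 had a lower mean in ISM1-KO. In 7 every ISM1-KO library lay below every WT library, as in 12.3% of all tested genes. They summed to 861.3 to 890.5 CPM in WT and 727.0 to 824.4 CPM in ISM1-KO, without overlap and not tested. *Elf5*, an epithelial ETS factor, was at 31.9 CPM in WT and 24.9 CPM in ISM1-KO and fell by 0.36 on the log2 scale (SE 0.0791, adjusted p = 0.0487 by the quasi-likelihood test of edgeR, Benjamini-Hochberg). *Tfcp2l1*, an epithelial factor of the grainyhead family, was at 110.6 and 89.0 CPM and fell by 0.31 (SE 0.079, adjusted p = 0.0760 by the same edgeR test). DESeq2 called 4 of the 10 lower. Neither *Elf5* nor *Tfcp2l1* was called by edgeR without WT replicate 2 or 3 or without ISM1-KO replicate 1 or 2. *Tfcp2l1* was not called without WT replicate 1 either (adjusted p = 0.18 by the same edgeR test). In that fit 1 of the 10 factors rose and 2 fell. Several of these factors act in airway epithelium too. All 5 club markers fell (median -0.51), though 0 of the 5 were called without WT replicate 2, 1 without ISM1-KO replicate 2, 2 without ISM1-KO replicate 1 and 3 without WT replicate 3. Of the 6 ciliated markers 4 fell (median -0.47), and 1 was called without WT replicate 2. Their part in the calls of the transcription factors was not tested. *Nkx2-1*, named here because its site letters are given above, was at 263.1 CPM in WT and 247.3 CPM in ISM1-KO with overlapping libraries (adjusted p = 0.631 by the same edgeR test).

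Of 12 genes of FGF receptor signalling and relatives of *Etv5*, 0 passed, and the median was 0.02 (-0.01 to 0.08 with a library left out). The highest, *Mapk3* (ERK1), was at 317.4 CPM in WT and 321.4 CPM in ISM1-KO, and *Fgf1* was at 296.5 and 335.6 CPM.

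Of 15 further AT2 markers, 1 rose, 0 fell and the median was -0.08, and their summed level was 4679 to 4831 CPM in WT and 4599 to 4792 CPM in ISM1-KO. DESeq2 called 1 higher and 3 lower. The gene that rose by the edgeR test was *Lyz1*, a lysozyme of the innate defence, counted 8347, 8924 and 9519 times in WT against 13373, 13969 and 13963 times in ISM1-KO. All 3 ISM1-KO libraries were well above WT, the log2 fold change was 0.61 (SE 0.0772), and the adjusted p was 0.0104 by the quasi-likelihood test of edgeR (Benjamini-Hochberg). The call held with each library left out in turn. *Lyz1* has a near-identical neighbour in *Lyz2*, which stood at 3474 CPM in WT and 3234 CPM in ISM1-KO (log2 fold change -0.10, adjusted p = 0.574 by the same edgeR test). The assignment of reads between *Lyz1* and *Lyz2* is uncertain.

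Of 12 markers of AT1 cells, the progeny of AT2 cells, 1 rose (*Rtkn2*, log2 fold change 0.45, adjusted p = 0.0715 by the quasi-likelihood test of edgeR, Benjamini-Hochberg), 11 had a log2 fold change above 0 and *Aqp5* one of -0.0074, and the median was 0.15. DESeq2 called 2 higher. In WT replicate 1 their sum, 7550 CPM, stood below the 9597 and 9799 CPM of the other WT libraries. Without it the median was 0.03 and 8 of the 12 were above 0, and without WT replicate 3 the median was 0.24. *Rtkn2* kept its call in 2 of the 6 fits with a library left out. Of 8 markers of the transitional state between AT2 and AT1 cells, 0 passed, with a median of -0.14. A difference between AT1 and AT2 genes in their response was not tested. Among the other cell types, 2 of 7 fibroblast markers and 1 of 5 cardiomyocyte markers fell, and 1 of 8 capillary endothelial markers, 4 of 5 neutrophil markers and 4 of 5 markers of B and plasma cells rose. These counts moved with single libraries. The fibroblast count was 0 without ISM1-KO replicate 1 and 1 without ISM1-KO replicate 2 or WT replicate 2 or 3. The cardiomyocyte call, of *Myl7*, held in 1 of the 6 fits with a library left out (without ISM1-KO replicate 3, where 2 were called) and was not made by DESeq2, and its log2 fold change of -1.11 was -0.66 without WT replicate 1, whose sum of 1216 CPM stood above the 437.8 and 515.5 CPM of the other WT libraries. The capillary count was 0 without ISM1-KO replicate 2 or WT replicate 2 or 3 and 2 without ISM1-KO replicate 3. The neutrophil count was 2 without ISM1-KO replicate 1 or 2 or WT replicate 1 or 2. That of B and plasma cells was 5 without ISM1-KO replicate 3 and 1 with any of the other 5 libraries left out.

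**Figure D4:**
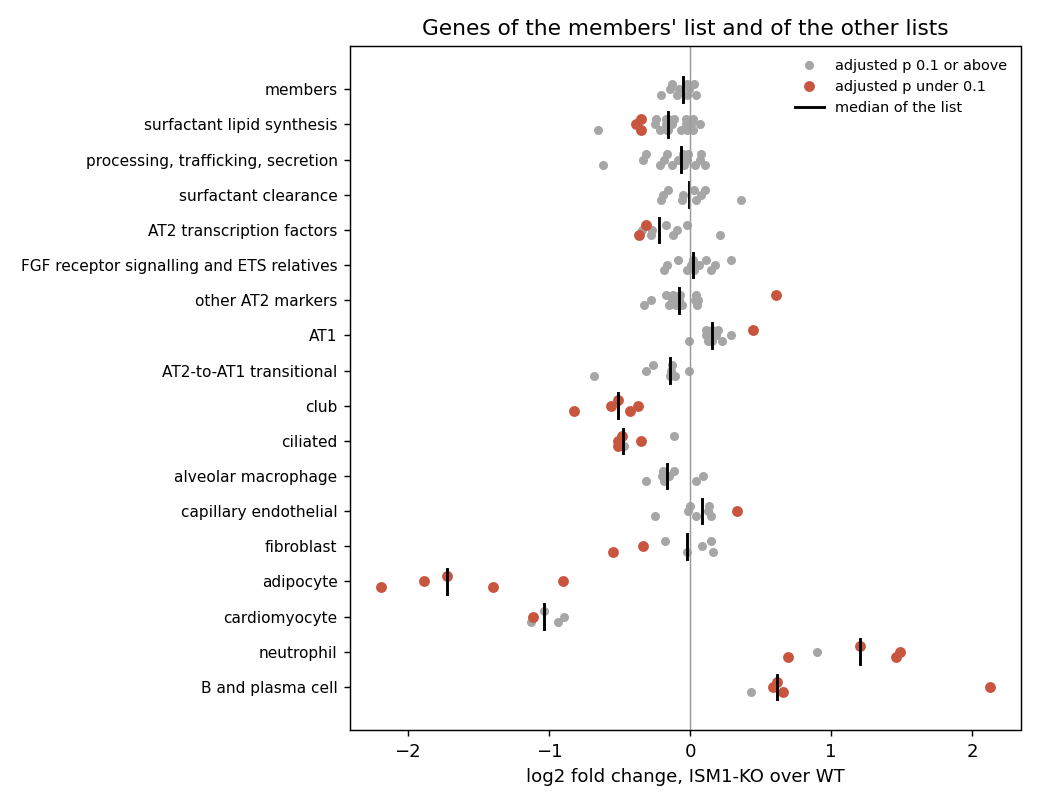
Log2 fold change, ISM1-KO over WT, of the 10 surfactant and AT2 genes (labelled members) and of the genes of the other lists, with genes at an adjusted p under 0.1 in red and the median of each list as a black bar. The 10 genes lay between -0.20 and 0.04, whereas the club and adipocyte markers lay to the left, with medians of -0.51 and -1.72, and the neutrophil markers to the right, with a median of 1.21. The ciliated markers had a median of -0.47, with the highest at -0.11 inside the range of the 10 genes.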

How the data were processed

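Poly-A RNA of whole lung was sequenced as read pairs from strand-specific libraries. Per the labels and the study's methods, the authors filtered reads and mapped them with STAR to GRCm38. They deposited raw counts per gene for 3 WT and 3 ISM1-KO libraries, and FPKM values, in which counts are divided by library total and gene length. The counting program and its strand setting are not given in the sources used here. The 18689 genes that reached 0.5 CPM in 1 or more libraries were tested in R 4.3.3 with edgeR 4.0.16 (TMM scaling, estimateDisp, glmQLFit, glmQLFTest, no covariates). A gene was called at a Benjamini-Hochberg adjusted p under 0.1 over all tested genes. CPM are scaled by TMM and intervals are at 95%. Total counts had a median of 39101437, and each pair of libraries differed by more than sampling noise.

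The 10 genes, the other lists and the rule for named genes were chosen with earlier results of these data known. The rule names the 10 genes, *Ism1*, genes called in each list (at most 4, otherwise the 1 or 2 highest), genes overlapping one of the 10, and the 5 most alike in pattern. *Nkx2-1*, *Lyz2* and *Aqp5* were named outside it, and the pairs of genes in the ratios were chosen outside it. Called markers of the other cell types are mostly given as counts only. Alternatives were DESeq2 1.42.0, RLE factors, library totals, TMM without the 10 genes, other filters, an adjusted p of 0.05, the replicate number as a block and each library left out.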

Additional observations from a re-analysis of the deposited data

How the results depend on the processing

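The count of called genes among the 10 was 0, and 0 with a 2-fold change, under the settings listed in the processing, with 1 exception. Without a filter on low counts 1 was called (*Sftpb*, log2 fold change -0.21, adjusted p = 0.0582 by edgeR's quasi-likelihood test), and over the alternatives without omission of a library its adjusted p was 0.0582 to 0.269. Over all genes tested, 882 were called. The count was 455 at an adjusted p of 0.05, 1632 without a filter, and between 150 (without WT replicate 2) and 1470 (without ISM1-KO replicate 3) with each library left out. DESeq2 called 1285. Other scalings and filters gave 803 to 909. With a library left out, the log2 fold change crossed 0 for *Sftpc* (-0.0331 to 0.0229), *Sftpd* (-0.118 to 0.0315), *Lamp3* (-0.0914 to 0.0277) and *Napsa* (-0.00372 to 0.0702). The same alternatives were run for 32 further genes, *Ism1* and the called genes of the other lists (at most 4 per list). Many of these are not named above. Of their 446 alternative fits, 91 no longer passed the threshold and 0 changed direction. *Ism1* had no call to lose. Apart from *Myl7* and the neutrophil marker *Csf3r*, calls were lost only in fits with a library left out. The causes were not tested. With the replicate number as a block, 1105 genes were called and 0 of the 10 (smallest adjusted p = 0.143 by edgeR). Same-numbered libraries did not deviate together (correlations of -0.04 to 0.031) and not every library correlated best with its own number. The labels give no pairing, and with 3 libraries per genotype these correlations cannot show that none existed. Depth limits little here, since each of the 10 genes had at least 8028 counts in each library, and 3 libraries per genotype set the precision.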

Other observations

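Among the 10823 genes whose mean reached 10 CPM, the 5 whose log2 CPM over the 6 libraries ran most like the mean of the 10 standardized surfactant and AT2 genes were *Osbpl1a* (Pearson r = 0.999), *Fgfr1op* (0.99), *Vill* (0.99), *Ephb6* (0.985) and *Mycbp* (0.981). The points share libraries and scaling, and the values are a description. Their log2 fold changes lay between -0.07 for *Osbpl1a* and -0.26 for *Vill*, and none of the 5 passed the edgeR test. The mean of the standardized genes itself was highest in WT replicate 3 at 0.566 and lowest in ISM1-KO replicate 2 at -0.567, while ISM1-KO replicate 3, in which 5 of the 10 were lowest and 2 highest, stood at -0.248.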
